A study of Mus musculus with 4 samples.

Results

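The genes described here are 42 genes of the lysosome and of its proton pump, the vacuolar H+-ATPase (V-ATPase), chosen by gene symbol from the 55573 genes listed for this experiment. They were sorted by known role into 11 cathepsins and other proteases, 5 glycosidases, 5 genes of lipid handling and cofactors, 6 membrane proteins, and 15 V-ATPase genes, of which 5 belong to the V0 sector, 8 to the V1 sector and 2 are accessory subunits. Ribosome-protected signal was measured in primary myoblasts, the proliferating muscle precursors obtained by enzymatic digestion of leg muscle of 3-week-old mice, on day 2 of proliferation with FGF and serum. Of the 4 libraries, 2 were WT and 2 carried the label eIF5A knockout (eIF5A-KO). The sample titles call the assay Polysome-Seq, which would read whole mRNAs on polysomes, while the protocol of the same samples describes RNase I digestion and gel isolation of protected fragments. The protocol was followed for the name of the values. Which of the assays gave the counts per gene was not tested, and shares of read types are given below. All 4 cultures had been given cycloheximide, which holds ribosomes on the mRNA. The study describes its knockout as a tamoxifen-induced deletion of floxed eIF5A by Pax7-CreERT2. It gives its WT controls in more than 1 way, as Pax7-CreERT2/+ mice or as floxed mice without Cre, and for the profiled myoblasts only as littermates. Only cells that have expressed Pax7 can lose the gene in that model, so other cells of the muscle that grew in the culture would keep it. The labels do not say whether libraries of a group came from separate animals or cultures, so p-values measure the spread between these libraries, which may be technical.

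Lysosomes are acidic compartments in which hydrolases break down protein, carbohydrate and lipid that arrive by endocytosis and autophagy. The V-ATPase makes them acidic. Its cytosolic V1 sector splits ATP and turns a rotor that drives protons through the membrane-bound V0 sector. Muscle precursor cells rely on autophagy and lysosomal breakdown when they leave quiescence and when they remodel during differentiation. eIF5A is the protein that is modified with hypusine, for which spermidine is the donor, and it helps ribosomes through stretches such as runs of prolines.

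Eif5a itself, the targeted gene, had 34.9 and 65.2 RPKM (reads scaled by gene length and library size) in the WT libraries and 60.3 and 59.4 RPKM under the KO label. The groups overlapped, and the side on which the KO label lay turned with 1 library, since the log2 fold change was 0.32 over all 4 and -0.12 without WT library 1. No loss of signal was thus shown, and higher and lower are used here for the label and not for a loss of eIF5A. Each library held between 642429 and 704006 reads. Protein-coding genes took 41.5% and 33.9% of the WT reads, against 65.4% and 59.2% under the KO label, while mitochondrial rRNA took 39.1% and 30.1% against 15.0% and 18.5%. WT library 2 stood apart in miRNA reads, with 16.8% against 4.30% in WT library 1 and 2.31% and 2.85% under the KO label. Preparation and genotype cannot be told apart in these shares. Reads were counted per gene and no RNA abundance of the same cells was used, so a change in mRNA, in ribosomes per mRNA, in RNA per cell and in the mix of cells cannot be told apart for any gene below.

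Most lysosomal genes had a somewhat higher ribosome-protected signal in the libraries labelled KO, and no single gene passed the test. Of the 42 genes, 36 had a log2 fold change above 0, and their median was 0.40, beside 0.049 over the 9877 protein-coding genes tested. The values ran from -1.15 for Atp6v1g1 to 1.10 for Ctsl, the gene of cathepsin L. By role the medians, whose differences were not tested, were 0.80 for the accessory subunits of the pump, 0.60 for glycosidases, 0.56 for membrane proteins, 0.43 for the V1 sector, 0.30 for lipid handling and cofactors, 0.29 for proteases and 0.14 for the V0 sector. In 19 genes both libraries labelled KO lay above both WT libraries, in 2 (Atp6v1g1 and Atp6v0c) both lay below, and in 21 the groups overlapped. Over all tested genes 20.1% did not overlap with higher values under the KO label and 20.3% with lower values. Over the protein-coding genes alone these shares were 22.4% and 19.3%.

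**Figure D1:**
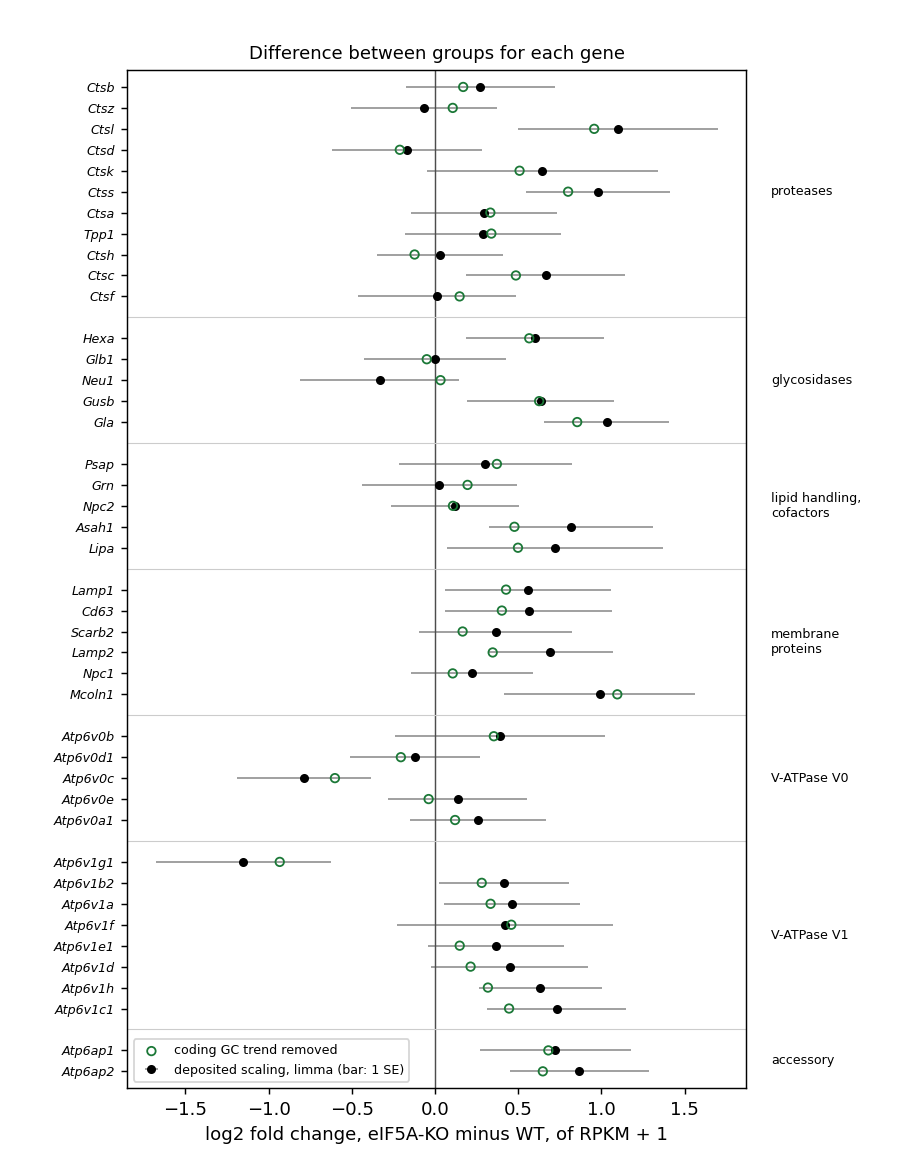
Log2 fold change of RPKM + 1 (x axis, eIF5A-KO minus WT, 2 libraries each) for each of the 42 genes (y axis, by role). Black points are the limma estimates with bars of 1 standard error, and green circles the same values after the trend with coding GC content was removed. Points lie to the right of 0 for 36 genes, and Atp6v1g1 and Atp6v0c lie furthest to the left.

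All 42 genes passed the filter of a mean of 1 RPKM over the 4 libraries, with 26 to 3075 reads each over the libraries together and a median of 176. By limma on log2(RPKM + 1), with Benjamini-Hochberg adjustment over all 11363 tested genes, 0 of the 42 reached an adjusted p under 0.05 in either direction. The background was low as well, since 0.0968% of tested genes were called lower and 0.0088% were called higher by the same rule. Without adjustment, at p under 0.05, 0 of the 42 were lower and 1 was higher (Gla), where 4.46% of tested genes were lower and 2.86% higher. On recovered reads, limma-voom called 0 of the 42 at the adjusted threshold and, at an unadjusted p under 0.05, 1 as lower (Atp6v1g1) and 0 as higher. It called 0.425% of its tested genes at the adjusted threshold, and without adjustment 6.66% as lower and 3.48% as higher. The median over the 42 genes depended on WT library 1: without it the median was 0.17, with 30 genes above 0, and without WT library 2 it was 0.54, with 32 genes above 0.

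**Figure D2:**
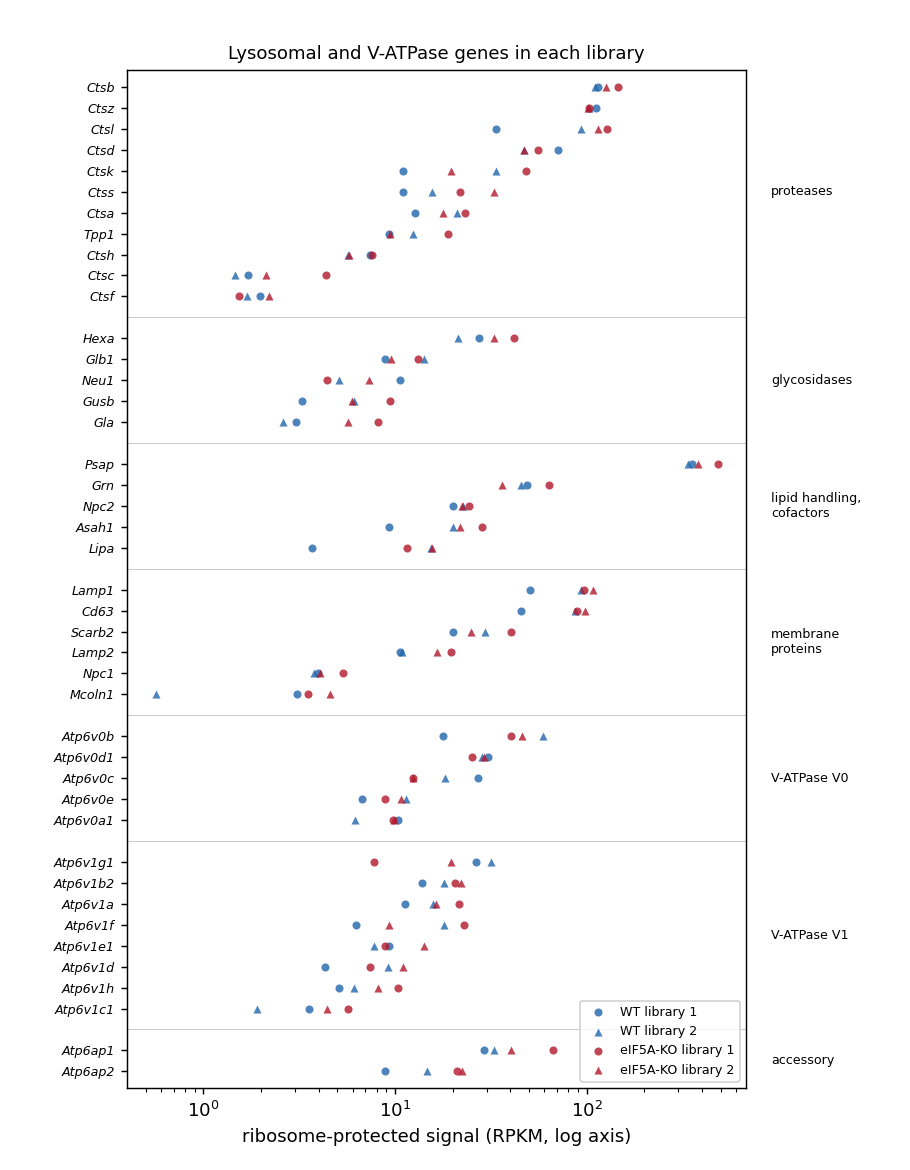
Ribosome-protected signal (x axis, RPKM, log axis) of each gene (y axis, by role and by mean level) in the 2 WT libraries (blue) and the 2 libraries labelled eIF5A-KO (red), 1 point per library. Psap has the highest signal, from 340 to 485 RPKM, and WT library 1 is the lowest point for 23 of the 42 genes.

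WT library 1 was the lowest of the 4 libraries for 23 of the 42 genes (54.8%), against 32.3% of the tested protein-coding genes. WT library 2 was the lowest for 11, and the libraries labelled KO for 5 and 3. The highest value fell in KO library 1 for 22 genes (52.4%), where 25.7% of protein-coding genes had theirs. In several genes the WT libraries lay further apart than WT library 2 lay from either library labelled KO. WT library 1 was the lower of the WT pair in some, such as Ctsl, Lamp1, Cd63, Atp6v0b and Lipa. It was the higher in others, such as Ctsd, Atp6v0c, Atp6v0a1 and Neu1.

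Many lysosomal promoters carry the palindrome TCACGTGA, a form of the E-box CACGTG, which TFEB and related MiT factors bind. It was searched because it is the known shared element of such genes. RefSeq promoter windows of 300 bases on GRCm38.p6, from 250 before the annotated start to 50 after it, were found for 34 of the 42 genes, with 38 windows in all. Since both motifs read the same on either strand, 1 strand was searched, and every TCACGTGA holds a CACGTG. TCACGTGA occurred in 7 of the 38 windows (18.4%) and in 0.974% of the 32851 windows of all genes. CACGTG occurred in 12 of the 38 (31.6%) and in 7.15% of all. The 9 sites in the 7 genes are given here in 30 bases each, 5′ to 3′ on the strand of the gene, with the motif in capitals, because they are a sequence that 7 of the genes have in common. The motif was about as frequent in the wider list of lysosomal genes that is read beside the 42 below, with TCACGTGA in 10 of 62 windows (16.1%) and CACGTG in 18 (29.03%). A difference between these lists was not tested.
Ctsa, chr2:164833749-164833778, plus strand: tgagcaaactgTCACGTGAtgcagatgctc
Ctsa, chr2:164833766-164833795, plus strand: gatgcagatgcTCACGTGAccagagctaca
Ctsd, chr7:142387908-142387937, minus strand: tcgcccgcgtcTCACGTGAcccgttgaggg
Mcoln1, chr8:3500462-3500491, plus strand: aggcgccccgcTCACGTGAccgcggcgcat
Atp6v0d1, chr8:105566050-105566079, minus strand: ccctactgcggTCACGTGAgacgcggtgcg
Atp6v1a, chr16:44139373-44139402, minus strand: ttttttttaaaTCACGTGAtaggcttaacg
Atp6v0e, chr17:26676387-26676416, plus strand: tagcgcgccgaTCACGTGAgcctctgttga
Gla, chrX:134601215-134601244, minus strand: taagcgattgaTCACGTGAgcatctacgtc
Gla, chrX:134601182-134601211, minus strand: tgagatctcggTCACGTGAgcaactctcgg
RefSeq starts differ from the ends of the gene spans in the deposited table, and 6 of the 9 sites (Ctsa, Ctsd, Mcoln1, Atp6v1a and Atp6v0e) lie inside those spans. Counted from the RefSeq start of the window, the first motif base lay 4 bases before it in Atp6v0d1, 46 in Mcoln1, 99 in Ctsd and 132 in Atp6v1a. Gla holds 2 copies, 228 and 195 bases before its start. Ctsa also holds 2, which lie on either side of its start. Fold changes of genes with and without the motif covered overlapping ranges. Over the 7 genes with TCACGTGA the median log2 fold change was 0.29, with 5 above 0 and a range from -0.17 for Ctsd to 1.03 for Gla. The 27 genes with a window and no TCACGTGA had a median of 0.42, with 24 above 0. These are descriptions of letters in a window, and no binding was measured.

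Among the proteases, the cysteine cathepsins Ctsl and Ctss had the highest fold changes, while the abundant Ctsz and Ctsd were near 0. Of the 11 genes 9 had a log2 fold change above 0, with a median of 0.29. In 4 of them (Ctsb, Ctsl, Ctss and Ctsc) the libraries labelled KO lay above both WT libraries, as in 20.1% of all tested genes. The median was 0.12 without WT library 1 or without KO library 1, and 0.47 without either of the other two. Ctsb (chromosome 14, 63122462 to 63145923, plus strand) codes for cathepsin B, a cysteine protease with both endopeptidase and dipeptidase activity. It had 115 and 110 RPKM in WT and 146 and 127 RPKM under the KO label, a log2 fold change of 0.27 with a standard error of 0.45 (limma, adjusted p = 0.853). Cathepsin L cuts proteins endoproteolytically, and its gene Ctsl (chromosome 13, 64359337 to 64370890, minus strand) had 33.5 and 92.9 RPKM in WT and 128 and 115 RPKM under the KO label. Its log2 fold change of 1.10 had a standard error of 0.60 (limma, adjusted p = 0.691), and without WT library 1 the value was 0.38. WT library 1 was thus the library furthest from the others in Ctsl. Ctsz (chromosome 2, 174427493 to 174439039, minus strand), a carboxypeptidase, was level over the libraries at 112 and 103 RPKM in WT and 103 and 101 RPKM under the KO label, with a log2 fold change of -0.07 and a standard error of 0.44 (limma, adjusted p = 0.9702).

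Ctsd codes for cathepsin D, the aspartic protease of the lysosome, and had 70.6 and 46.9 RPKM in WT and 55.8 and 46.9 RPKM under the KO label. Cathepsin K, best known for breaking down collagen in bone, was uneven within both groups, since Ctsk had 10.97 and 33.7 RPKM in WT and 48.1 and 19.7 RPKM under the KO label. Cathepsin S is a protease of antigen-presenting cells, and Ctss had 10.99 and 15.6 RPKM in WT and 21.9 and 32.8 RPKM under the KO label. The groups did not overlap, with a log2 fold change of 0.98 and an unadjusted limma p of 0.065. Macrophage markers went both ways, and their part in the Ctss values was not tested. Of 12 such genes 6 passed the filter, with a median log2 fold change of -0.41. The libraries labelled KO lay above WT in Cd14 and Adgre1 and below it in Cd68, Lyz2 and Mrc1. The list had summed levels of 52.1 and 80.5 RPKM in WT and 68.6 and 51.7 RPKM under the KO label. C1qa was at 0 in all 4 libraries, C1qb, C1qc and Fcer1g each had 1 read in all, and Ptprc had 11. Csf1r, which did not pass the filter, had 1 and 0 reads in WT and 6 and 6 under the KO label. Adgre1 had 0.51 and 1.97 RPKM in WT and 4.43 and 4.21 RPKM under the KO label.

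The remaining proteases had weaker signal. Ctsa, a serine carboxypeptidase that also protects sialidase and β-galactosidase, had 12.7 and 21.2 RPKM in WT and 23.2 and 17.9 RPKM under the KO label. Tpp1, which removes tripeptides from protein ends, had 9.32 and 12.3 RPKM against 18.8 and 9.35 RPKM. Ctsh, an aminopeptidase, had 7.37 and 5.66 RPKM against 7.60 and 5.78 RPKM. The groups overlapped in these genes. Ctsc, which activates serine proteases of immune cells, had 1.71 and 1.46 RPKM against 4.37 and 2.13 RPKM on 43 reads in all, and an overlapping gene with 269 reads lies within its span. Ctsf had 1.97 and 1.68 RPKM against 1.53 and 2.21 RPKM on 26 reads.

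The glycosidases, which remove sugars from glycoproteins and glycolipids, held the gene with the smallest p-value of the 42. Their median of 0.60 was 0.27 without WT library 1 and 0.35 without KO library 1. Gla (chromosome X, 134588149 to 134601125, minus strand) codes for α-galactosidase A, which cleaves globotriaosylceramide, and its promoter holds 2 of the palindromes shown above. It had 3.05 and 2.60 RPKM in WT and 8.10 and 5.69 RPKM under the KO label, on 49 reads in all. Its means of 2.82 ± 0.317 RPKM and 6.90 ± 1.71 RPKM (SD, n = 2 each) gave a log2 fold change of 1.03 and a standard error of 0.38 (limma, adjusted p = 0.672). The unadjusted p was 0.0352 on this scale and 0.135 by limma-voom on reads. Hexa (chromosome 9, 59539540 to 59565109, plus strand), the α subunit of β-hexosaminidase, also did not overlap between groups, at 27.4 and 21.3 RPKM in WT and 42.0 and 32.9 RPKM under the KO label, with a log2 fold change of 0.60 and a standard error of 0.41 (limma, adjusted p = 0.697).

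The other glycosidases overlapped between groups. Glb1 (chromosome 9, 114401076 to 114474898, plus strand), the β-galactosidase read in senescence assays, had 8.82 and 14.1 RPKM in WT and 13.2 and 9.47 RPKM under the KO label, and its log2 fold change of 0.00061 had a standard error of 0.42 (limma, adjusted p = 1.00). Neu1 (chromosome 17, 34931253 to 34935953, plus strand), the sialidase, had 10.7 and 5.12 RPKM against 4.43 and 7.30 RPKM, a log2 fold change of -0.33 with a standard error of 0.48 (limma, adjusted p = 0.829). The direction of both flipped when the trend with GC content was removed, to -0.049 and 0.033, and Neu1 has the highest coding GC content of the 42 genes, 60.6%. Gusb, the β-glucuronidase, had 3.28 and 6.07 RPKM in WT and 9.45 and 5.99 RPKM under the KO label.

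Of the 5 genes of lipid handling and cofactors, all had a log2 fold change above 0, with a median of 0.30. Psap (chromosome 10, 60277627 to 60302597, plus strand) codes for prosaposin, the precursor of the saposins that present sphingolipids to their hydrolases. It had the highest signal per gene length of the 42 genes in every library, at 355 and 340 RPKM in WT and 485 and 379 RPKM under the KO label. Its means were 348 ± 11.2 and 432 ± 74.6 RPKM (SD, n = 2 each), with a log2 fold change of 0.30 and a standard error of 0.52 (limma, adjusted p = 0.859). That fold change lay between 0.13 and 0.48 when any 1 library was left out. The groups did not overlap in Psap, and the gap between the nearest libraries of the groups was smaller than the distance between the libraries labelled KO. Grn (chromosome 11, 102430315 to 102437048, plus strand), which codes for progranulin and binds prosaposin on its way to the lysosome, had 48.7 and 45.2 RPKM in WT and 63.5 and 36.0 RPKM under the KO label, a log2 fold change of 0.027 with a standard error of 0.47 (limma, adjusted p = 0.989). Npc2, which hands cholesterol to the transporter NPC1, was level at 20.1 and 22.6 RPKM against 24.3 and 22.3 RPKM. Asah1, the acid ceramidase, had 9.30 and 20.04 RPKM in WT and 28.3 and 21.9 RPKM under the KO label, without overlap. Lipa, which hydrolyses cholesteryl esters and triglycerides, had 3.67 and 15.3 RPKM against 11.5 and 15.5 RPKM, with WT library 1 apart from the other 3. Without that library the median of these 5 genes was 0.080, without KO library 1 it was 0.13 and without KO library 2 it was 0.48. The genes higher without overlap fell from 2 to 1 with the GC trend removed, beside 20.1% and 20.6% of genes on those scales.

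All 6 membrane proteins had a log2 fold change above 0. In 5 of them both libraries labelled KO lay above both WT libraries, as in 20.1% of all tested genes. With the GC trend removed the median went from 0.56 to 0.37. The genes higher without overlap then went from 5 to 2, where 20.6% of the 9869 genes on that scale lay so. Lamp1 and Cd63, which line the lysosomal membrane and the vesicles inside late endosomes, had similar values. Lamp1 (chromosome 8, 13159161 to 13175338, plus strand) had 50.8 and 93.6 RPKM in WT and 96.4 and 108 RPKM under the KO label, a log2 fold change of 0.56 with a standard error of 0.50 (limma, adjusted p = 0.731). Cd63 (chromosome 10, 128900989 to 128912822, plus strand) had 45.5 and 86.5 RPKM against 89.2 and 97.5 RPKM, also 0.56 with a standard error of 0.50 (limma, adjusted p = 0.731). In both genes WT library 2 lay close to the libraries labelled KO, and without WT library 1 the log2 fold changes were 0.13 and 0.11.

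Lamp2, whose LAMP-2A form takes up proteins in chaperone-mediated autophagy, was more even within groups, with 10.6 and 10.9 RPKM in WT and 19.5 and 16.6 RPKM under the KO label. Its log2 fold change of 0.69 lay between 0.58 and 0.80 when any 1 library was left out. With the GC trend removed it was 0.35, and Lamp2 has the lowest coding GC content of the 42 genes, 42.5%. Mcoln1 (chromosome 8, 3500457 to 3515232, plus strand) codes for mucolipin-1, the channel that releases calcium from the lysosome. It had 3.07 and 0.56 RPKM in WT and 3.50 and 4.59 RPKM under the KO label, a log2 fold change of 0.99 with a standard error of 0.57 (limma, adjusted p = 0.697), and the value without WT library 2 was 0.30. Npc1, the cholesterol transporter, had 3.96 and 3.75 RPKM against 5.36 and 4.05 RPKM. Scarb2, the receptor that brings glucocerebrosidase to the lysosome, had 20.1 and 29.4 RPKM in WT and 40.2 and 24.8 RPKM under the KO label and was the membrane protein whose groups overlapped. Without WT library 1 the median of the 6 genes was 0.19.

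The V-ATPase genes did not all lie on the same side of 0. Of its 15 genes 12 had a log2 fold change above 0, with a median of 0.42. In 6 the libraries labelled KO lay above both WT libraries, and in 2 (Atp6v0c and Atp6v1g1) below. Over all tested genes 20.1% lay above WT without overlap and 20.3% below. Without WT library 1 the genes above 0 numbered 8 of the 15 and the median was 0.23. With the GC trend removed 4 lay without overlap above WT and 3 below, beside 20.6% and 18.1% of the 9869 genes on that scale. In the membrane sector V0, 3 of 5 genes were above 0, and the median of 0.14 turned to -0.038 with the GC trend removed and to -0.21 without WT library 1. It was -0.076 without WT library 2, 0.018 without KO library 2 and 0.25 without KO library 1. Atp6v0c (chromosome 17, 24163866 to 24169702, minus strand) codes for the proteolipid c subunit, the repeated unit of the proton-carrying ring. It had 27.0 and 18.2 RPKM in WT and 12.4 and 12.4 RPKM under the KO label, a log2 fold change of -0.79 with a standard error of 0.40 (limma, adjusted p = 0.680). Both libraries labelled KO were lower than both WT libraries, and the value stayed between -1.06 and -0.52 when any 1 library was left out. Its processed copies Atp6v0c-ps1 and Atp6v0c-ps2 were listed at 0 in every library. Atp6v0b (chromosome 4, 117884326 to 117887333, minus strand), the other proteolipid of the ring, had 17.8 and 59.0 RPKM in WT and 40.3 and 45.9 RPKM under the KO label, and its log2 fold change of 0.39 with a standard error of 0.63 (limma, adjusted p = 0.8502) was -0.45 without WT library 1.

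Atp6v0d1 (chromosome 8, 105524465 to 105566047, minus strand), which joins the ring to the central stalk, was level at 30.5 and 28.4 RPKM in WT and 25.2 and 29.0 RPKM under the KO label, a log2 fold change of -0.12 with a standard error of 0.39 (limma, adjusted p = 0.933). Scaling the libraries to the same sum of reads turned that value to 0.47. Atp6v0a1, the large subunit that forms the path of the protons, had 10.4 and 6.15 RPKM against 9.75 and 9.82 RPKM. Atp6v0e, a small membrane subunit, had 6.70 and 11.4 RPKM against 8.91 and 10.7 RPKM.

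In the cytosolic sector V1, 7 of the 8 genes had log2 fold changes between 0.37 and 0.73, and Atp6v1g1 stood on the other side of 0. The median of 0.43 fell to 0.24 without WT library 1, where 5 genes were above 0. With the GC trend removed the genes higher without overlap went from 4 to 2, beside 20.1% and 20.6% of genes on those scales. Atp6v1g1 (chromosome 4, 63544772 to 63550750, plus strand) codes for the G1 subunit of the peripheral stalk. It had 26.3 and 31.8 RPKM in WT (18 and 17 reads) and 7.77 and 19.6 RPKM under the KO label (8 and 18 reads), so each value rests on few reads. Its log2 fold change of -1.15 had a standard error of 0.53 (limma, adjusted p = 0.676), and it was -0.54 without KO library 1. By limma-voom its adjusted p was 0.474. Its partner in the stalk, Atp6v1e1, had 9.28 and 7.75 RPKM in WT and 8.85 and 14.2 RPKM under the KO label, with a log2 fold change of 0.37. The lowest value for Atp6v1e1 with any 1 library left out was 0.055, and with the GC trend removed it was 0.15.

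The catalytic head of the pump is built from subunits A and B. Atp6v1a, which binds and splits ATP, had 11.3 and 15.8 RPKM in WT and 21.5 and 16.4 RPKM under the KO label. Atp6v1b2 (chromosome 8, 69088646 to 69113711, plus strand), its partner, had 13.8 and 18.0 RPKM against 20.6 and 22.2 RPKM, a log2 fold change of 0.42 with a standard error of 0.39 (limma, adjusted p = 0.734). The groups did not overlap in either gene, and without WT library 1 both log2 fold changes were still above 0, at 0.24 and 0.23. Atp6v1h and Atp6v1c1 take part in holding the sectors together and in regulating that contact. Atp6v1h had 5.11 and 6.10 RPKM in WT and 10.4 and 8.13 RPKM under the KO label, and Atp6v1c1 had 3.55 and 1.89 RPKM against 5.71 and 4.42 RPKM, without overlap in either. The rotor genes Atp6v1d and Atp6v1f overlapped between groups, with 4.33 and 9.22 RPKM against 7.43 and 11.03 RPKM for Atp6v1d and 6.24 and 18.0 RPKM against 22.8 and 9.32 RPKM for Atp6v1f.

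Both accessory subunits had a higher signal in both libraries labelled KO than in both WT libraries, as 20.1% of all tested genes had. Atp6ap1 (chromosome X, 74297097 to 74304721, plus strand) codes for Ac45, which takes part in assembling V0. It had 29.1 and 33.0 RPKM in WT and 66.7 and 40.1 RPKM under the KO label, a log2 fold change of 0.72 with a standard error of 0.45 (limma, adjusted p = 0.697). Atp6ap2 (chromosome X, 12587801 to 12617049, plus strand), the prorenin receptor, had 8.87 and 14.6 RPKM against 21.1 and 22.2 RPKM, a log2 fold change of 0.87 with a standard error of 0.42 (limma, adjusted p = 0.676). The lowest values with any 1 library left out were 0.36 and 0.54.

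**Figure D3:**
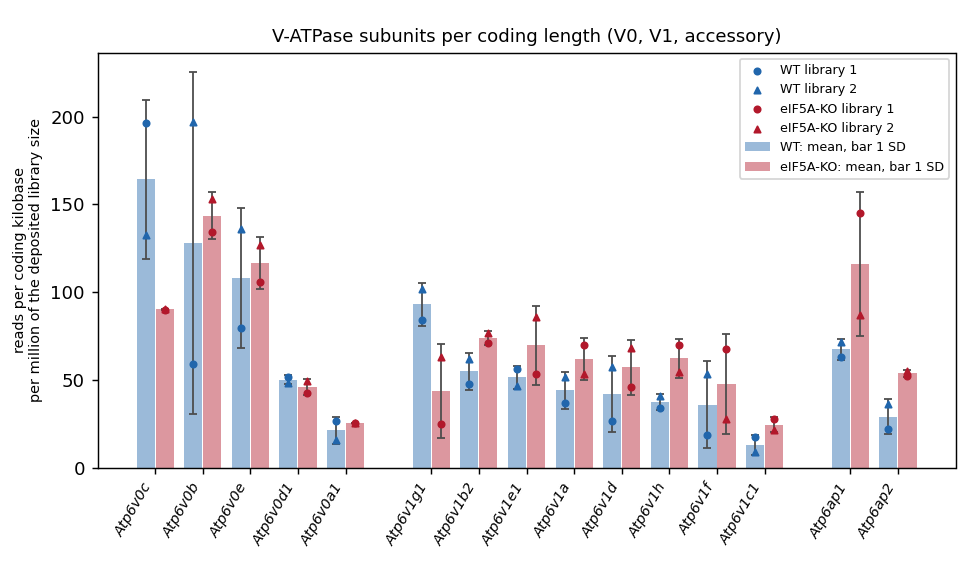
Reads per kilobase of coding sequence at the deposited library scaling (y axis) for the 15 V-ATPase genes (x axis, V0 then V1 then accessory). Bars are means of 2 libraries with 1 SD, and points single libraries. Atp6v0c and Atp6v1g1 are the subunits with both red points below both blue points.

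Subunits of 1 complex can be set against each other per coding length. On that scale the ring proteolipids were among the highest, and their order changed between libraries. Atp6v0c had 196 and 132 reads per coding kilobase at the deposited scaling in WT and 90.1 and 90.5 under the KO label. Atp6v0b had 59.3 and 197 in WT and 134 and 153 under the KO label, so Atp6v0c was the higher of the pair in WT library 1 and Atp6v0b in WT library 2. The catalytic subunits Atp6v1a and Atp6v1b2 lay close together, at 44.2 ± 10.5 and 55.0 ± 10.4 in WT and 61.9 ± 11.9 and 74.0 ± 3.90 under the KO label. The lowest was Atp6v1c1, with 13.3 ± 5.73 and 24.8 ± 4.45. Over all 42 genes the order of levels was similar by gene length and by coding length, since 8 of the 10 genes highest in WT were the same, with Ctsb (669 ± 18.7 in WT) ahead of Psap (571 ± 18.4) and Ctsl (409 ± 272) per coding length.

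Counted as reads, the 42 genes took 0.936% and 1.10% of the protein-coding reads in the WT libraries and 1.29% and 1.18% in the libraries labelled KO. The 95% Wilson interval of the lowest share was 0.8999% to 0.973%, and intervals cover counting error only, since PCR reads are not independent molecules. The group means were 1.02% ± 0.116 and 1.24% ± 0.0766 (SD, n = 2), a ratio of 1.21, and the two-sided exact permutation p was 0.333, the smallest possible with 2 against 2 libraries. Without Psap the ratio was 1.23, and over all reads of the library it was 2.03, in step with the larger share of protein-coding reads under the KO label. By sector, V1 took 0.0765% ± 0.0114 in WT and 0.0954% ± 0.00210 under the KO label, while V0 took 0.0651% ± 0.00479 and 0.0569% ± 0.00614 (SD, n = 2, exact permutation p = 0.333 for each). For V0 the nearest libraries were at 0.0617% (WT library 1) and 0.0613% (KO library 2), within counting error, and over all reads V0 was higher under the KO label, at 0.0244% and 0.0353%. The sign for V0 thus turned with the denominator. Membrane proteins took 0.165% ± 0.0436 and 0.219% ± 0.000277.

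Fold changes moved with the GC content of the coding sequence over all protein-coding genes. Cut by GC content into 4 bins of about the same number of genes, their median was 0.32 in the lowest bin, 0.18 and -0.045 in the next and -0.31 in the highest. The lysosomal genes had a median coding GC content of 50.8%, beside 53.2% over the tested protein-coding genes. In the 3 lower bins their medians lay above those values, at 0.69 for 9 genes, 0.42 for 19 genes and 0.29 for 12 genes. The 2 genes in the highest bin, Neu1 and Atp6v1g1, had a median of -0.74. With the trend removed from each library the median over the 42 genes was 0.33, 35 genes were above 0, 14 did not overlap with higher values under the KO label and 3 with lower values, where 20.6% and 18.1% of the 9869 genes on that scale did. Atp6v1g1 and Atp6v0c then had -0.93 and -0.60, and Ctsl, Gla and Mcoln1 had 0.96, 0.85 and 1.10. The part of GC content in the single values was not tested.

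**Figure D4:**
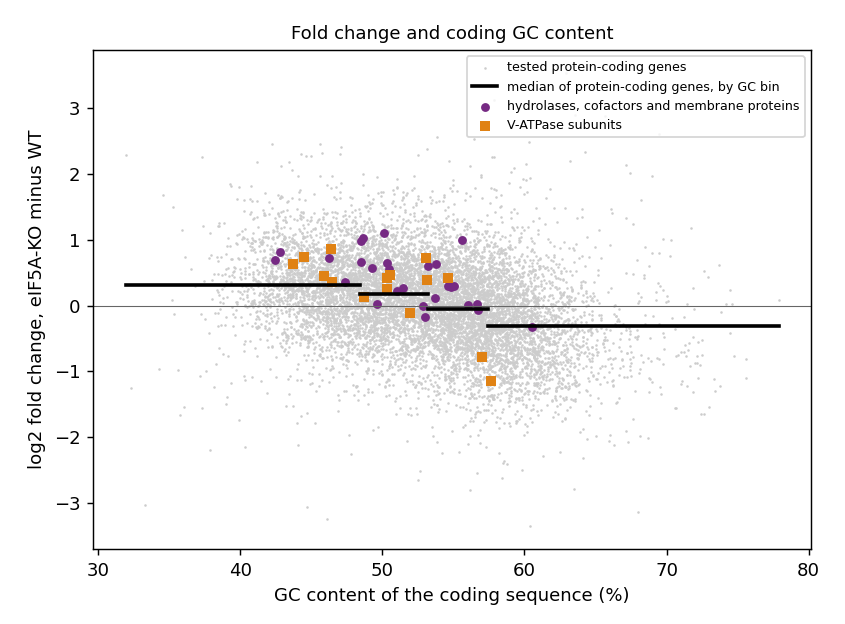
Log2 fold change (y axis, eIF5A-KO minus WT) against the GC content of the coding sequence (x axis, %) for tested protein-coding genes (grey), hydrolases, cofactors and membrane proteins (purple circles) and V-ATPase genes (orange squares). Black lines are medians of protein-coding genes by bin of GC content, from 0.32 to -0.31, and Atp6v0c and Atp6v1g1 are the lowest orange squares.

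Proline runs, at which ribosomes are known to need eIF5A, were uncommon in the proteins of the 42 genes. A run of 3 or more prolines occurred in the longest annotated coding sequence of 2 of the 42 genes (4.76%), Npc1 with 5 and Ctsd with 3, and of 25.8% of the tested protein-coding genes. In the wider list of lysosomal genes it occurred in 11 of the 54 tested (20.4%), so the low share is not one of lysosomal genes at large. Npc1 had a log2 fold change of 0.22 and Ctsd of -0.17, both smaller than their standard errors of 0.37 and 0.45.

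A wider list of 65 lysosomal genes that are not among the 42 was read beside them. Of these, 54 were tested, 37 had a log2 fold change above 0 and the median was 0.22, between that of the 42 genes and that of all protein-coding genes. In 19 the libraries labelled KO lay above both WT libraries and in 9 below, against 20.1% and 20.3% of all tested genes. With WT library 2 left out the median was 0.11 and with KO library 1 left out 0.030, while leaving out WT library 1 gave 0.35 and leaving out KO library 2 gave 0.36. Of the 54, 2 were lower and 1 was higher by an unadjusted p under 0.05, where 4.46% and 2.86% of all tested genes were, and 0 passed the adjusted threshold of limma. Nagpa, which uncovers the mannose 6-phosphate tag that sends hydrolases to the lysosome, had 7.70 and 8.06 RPKM in WT and 1.86 and 3.13 RPKM under the KO label, a log2 fold change of -1.37. It rests on 30 reads in all, and the value was -0.92 with the GC trend removed. Tpcn1, an endolysosomal cation channel, had 3.53 and 3.01 RPKM against 0.65 and 0.88 RPKM, on 41 reads. Galns, a sulfatase that acts on keratan sulfate, had 3.76 and 2.40 RPKM against 7.07 and 9.81 RPKM, on 47 reads. By limma-voom the unadjusted p of Galns was 0.126, and that of Laptm4a, with 1425 reads and a log2 fold change of 1.30, was 0.0186. Among genes of V-ATPase isoforms that other tissues use, Atp6v0d2, Atp6v1b1, Atp6v1c2, Atp6v1e2, Atp6v1g2 and Atp6v1g3 were listed at 0 in all 4 libraries and Atp6v0a4 had 1 read. Rnasek, which is not confined to such tissues, was also listed at 0 in all 4, so a listed 0 is not read as absence of the transcript. Tcirg1, the a3 subunit of lysosomes and osteoclasts, had 10.8 and 11.99 RPKM in WT and 19.6 and 17.2 RPKM under the KO label.

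Lysosomal genes are read in every cell type, so the marker genes of the culture stand beside these values. Over the 8 myogenic markers the median log2 fold change was -1.15, with summed levels of 253 and 207 RPKM in WT and 118 and 132 RPKM under the KO label. Myod1, a defining gene of myoblasts, was read in every library, with 140 and 117 RPKM in WT and 48.6 and 79.8 RPKM under the KO label (log2 fold change -1.03), and Pax7 had 8.49 and 3.62 RPKM against 0.94 and 1.48 RPKM. The libraries labelled KO also lay below WT in Des, Chrna1 and Myf5. They lay above it in Vcam1, with 20.01 and 12.98 RPKM after 5.42 and 11.7 RPKM, and Itga7 and Cdh15 overlapped. The 8 fibroblast markers had a median of 0.54, with sums of 461 and 270 RPKM against 775 and 346 RPKM. Of these sums Dcn alone made up 240 and 126 RPKM in WT and 460 and 171 RPKM under the KO label. Thy1 lay below WT without overlap (-0.36), and Col3a1, whose groups overlapped, was at -0.27. The 5 endothelial markers had a median of 0.57, with sums of 106 and 99.8 RPKM against 139 and 112 RPKM. No fibroblast or endothelial marker was at 0 in any library. The part of the cell mix in the lysosomal values was not tested.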

How the data were processed

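The authors deposited 1 table of RPKM values for 55573 genes in 4 ribosome-profiling libraries (2 WT, 2 labelled eIF5A-KO), with gene lengths. Their notes name TopHat2, HTSeq and mm10. Tool versions and strand rules are not given in the sources used here. RPKM times gene length gave whole multiples of 1 step for 100% of values (tolerance 0.001), so reads were recovered (642429 to 704006 a library). The library size the authors divided by, 471136 to 906990, is not the read total. The mean ± SD of 2 libraries gives limited precision.

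Groups came from the genotype labels, and table columns were matched to samples by title. The 42 genes and all lists were chosen with earlier results of these data known. limma 3.58.1 in R 4.3.3 (lmFit, eBayes with trend=TRUE) was fitted to log2(RPKM + 1). The 11363 genes that averaged 1 RPKM or more were tested, and p-values were adjusted by Benjamini-Hochberg. Fold changes on this scale understate those of weakly read genes. Scripts were tested on simulated data. Signal is given per library for each of the 42 genes with at least 20 reads. Standard error and adjusted p-value are given for the 2 highest genes by mean RPKM of each role, those at an unadjusted p under 0.05, and the 3 lowest and 3 highest fold changes. Of the wider lysosomal list, genes at an unadjusted p under 0.05 were named, and the others there were named after their values were seen. Coding sequences came from GENCODE M21 (GRCm38), in which 99.7% of the identifiers were found, 99.6% of these with the same coordinates. Of the 42 genes, 10 overlap the span of another gene with reads.

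Alternatives were a pseudocount of 0.1, no filter, a minimum mean of 5 RPKM, at least 20 reads, scaling to the same sum over all or protein-coding genes, protein-coding genes only, removal of the GC trend (lowess, span 0.3), trend=FALSE, limma-voom, a replicate block and leaving out each library. Counts of non-overlapping genes under other scalings, and the alternatives for Eif5a and for the wider list, were added after seeing the data.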

Additional observations from a re-analysis of the deposited data

How the results depend on the processing

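No alternative brought any of the 42 genes past the adjusted threshold of limma. An equal sum of reads in every library moved the median of all tested genes from 0.00026 to 0.48, and with it the median of the 42 genes to 0.99, of proteases to 0.88, glycosidases to 1.16, lipid handling and cofactors to 0.92, membrane proteins to 1.17, V0 to 0.69, V1 to 1.00, accessory subunits to 1.38 and the wider lysosomal list to 0.72. Under it 15 of the 42 were higher at an unadjusted p under 0.05, 35 did not overlap with higher and 0 with lower values, where the shares of all tested genes were 14.8%, 41.9% and 7.54%, and Ctsz, Atp6v0d1 and Neu1 turned to 0.54, 0.47 and 0.19. An equal sum over protein-coding genes brought 0.034 for V0, 0.11 for the wider list, and -0.10 and -0.086 for Glb1 and Grn. The median of the 42 genes was then 0.29, with 32 above 0, that of proteases 0.18 and that of lipid handling and cofactors 0.19. Of the 21 hydrolases and cofactors 14 were above 0 on that scale, where 18 were before. Non-overlap was counted under this scaling as well. It left 4 of the 42 genes (9.52%) that did not overlap with lower and 15 (35.7%) with higher values, beside 23.5% and 16.4% of all tested genes. With the GC trend removed V0 was -0.038, Ctsz 0.11, Glb1 -0.049 and Neu1 0.033. A minimum mean of 5 RPKM gave 0.30 for glycosidases and 0.098 for the wider list. V0 was 0.16 by limma-voom and 0.15 with the smaller pseudocount. At an unadjusted p under 0.05, 1 gene (2.38%) was lower with at least 20 reads, by limma-voom and among protein-coding genes only, where 5.43%, 6.66% and 4.22% of all tested genes were. The number higher was 0 with the GC trend removed, by limma-voom, at a minimum of 5 RPKM and with trend=FALSE, beside 3.75%, 3.48%, 3.23% and 2.51% of all tested genes, and 2 (4.76%) among protein-coding genes only, beside 4.23%. Over all reads the ratio of shares was 2.03. Beyond the scalings, the causes were not tested.

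With each library left out in turn, the genes at an unadjusted p under 0.05 numbered 0 to 1 lower and 0 to 7 higher, beside 1.98% to 6.96% and 1.8% to 7.12% of all tested genes. The 7 (16.7%), and the 7.12%, came without WT library 2. Those that did not overlap numbered 5 to 7 lower and 22 to 31 higher. With 2 libraries against 1, overlap is rarer by construction: 30.4% to 39.4% of all tested genes then did not overlap with lower and 31.7% to 35.9% with higher values. The medians ranged from 0.17 to 0.54 for the 42 genes, 0.12 to 0.47 for proteases, 0.27 to 0.77 for glycosidases, 0.080 to 0.48 for lipid handling and cofactors, 0.19 to 0.67 for membrane proteins, -0.21 to 0.25 for V0, 0.24 to 0.65 for V1, 0.59 to 1.00 for the accessory subunits and 0.030 to 0.36 for the wider list. Eif5a ranged from -0.12 (without WT library 1) to 0.76, Atp6v0b from -0.45 to 1.23, Glb1 from -0.31 to 0.31, Grn from -0.37 to 0.43 and Neu1 from -0.80 to 0.13.

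Same-numbered libraries had no shared deviation (r = 0.058 over 11363 genes), so numbers were not taken as pairs. With the replicate block, 0 of the 42 genes were called at the adjusted threshold, none lower and 1 (2.38%) higher at that unadjusted threshold, where 4.48% and 2.8% of all tested genes were, and the median was 0.40. Depth limits single genes: 26 reads over the 4 libraries stand behind Ctsf and 61 behind Atp6v1g1.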
